A study of Mus musculus with 8 samples.

Results

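The 39 genes described here belong to the hypoxia response of mouse cells, leaving out the enzymes and transporters of glycolysis. They were taken as a written list of gene symbols, and the probe of each gene was chosen by its brightness, as the one with the highest mean over the 8 deposited normalized columns. The array names 26894 genes by symbol, so these are 39 of 26894, and all 39 have at least 1 probe. The list was drawn up with results of these arrays known, so its values are a description of these samples, and none of its counts is independent evidence of a direction.

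Expression was measured in pancreatic islets of male mice, 4 βUCP2Tg samples and 4 wild-type (WT) samples. In βUCP2Tg mice a rat insulin promoter drives a *Ucp2* cDNA, so that the transgene acts in β-cells while the RNA comes from whole islets. *Ucp2* encodes a carrier of the inner mitochondrial membrane. The mice were on a C57BL6/J background, aged 8 to 12 weeks at islet isolation by the study's methods, and the controls were WT littermates. Isolated islets of both genotypes stood for 8 h in RPMI 1640 with 200 mg/dL glucose, 10% FBS and antibiotics in a humidified incubator with CO2, before RNA was taken. The labels name no low-oxygen treatment, so that every value compares 2 genotypes under one culture condition. The sources used here do not say if each sample came from 1 mouse or from a pool, so every n, SD and p counts samples and may cover technical spread alone.

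Cells sense oxygen through prolyl hydroxylases, which mark the α subunits of hypoxia-inducible factor (HIF) when oxygen is present. The von Hippel-Lindau protein then binds the marked subunit and directs it to the proteasome. When oxygen is short the α subunit is spared, pairs with ARNT in the nucleus and binds a short DNA motif, the hypoxia response element, near genes that move the cell away from oxygen use, build vessels, restrain growth and remodel mitochondria. Isolated islets have lost their blood supply and are known for oxygen-poor centres in culture. In β-cells, HIF activity is known to dampen glucose-stimulated insulin release.

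The promoters of 6 members are shown. *Ddit4*, *Hif3a*, *Vegfa* and *Stc2* are the 4 of 37 tested members whose βUCP2Tg and WT arrays did not overlap. Of these 3 were lower, beside 7.17% of all probes, and 1 was higher, beside 5.25%. Lack of overlap was thus about as common among the members as among all probes. *Bnip3* and *Ankrd37* are widely used readouts of direct HIF activity. Each line holds the 250 bases before the transcript start in RefSeq (build GRCm38.p6), 5′ to 3′ in the direction of the gene. Capitals mark ACGTG and GCGTG, the 2 common forms of the core of the hypoxia response element, on either strand, where CACGT and CACGC are the same motifs read on the other strand, and overlapping matches are joined.
*Ddit4*, chr10:59951771-59952020, minus strand: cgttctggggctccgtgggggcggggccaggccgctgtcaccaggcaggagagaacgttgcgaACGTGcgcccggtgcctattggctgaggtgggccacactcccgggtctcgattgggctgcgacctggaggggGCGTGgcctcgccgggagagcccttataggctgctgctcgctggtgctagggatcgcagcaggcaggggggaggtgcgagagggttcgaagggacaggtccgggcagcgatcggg
*Hif3a*, chr7:17062428-17062677, minus strand: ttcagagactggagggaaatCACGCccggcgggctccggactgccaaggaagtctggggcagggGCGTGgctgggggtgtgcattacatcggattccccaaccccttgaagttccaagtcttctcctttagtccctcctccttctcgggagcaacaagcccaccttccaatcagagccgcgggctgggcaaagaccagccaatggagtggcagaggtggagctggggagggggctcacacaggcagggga
*Vegfa*, chr17:46032378-46032627, minus strand: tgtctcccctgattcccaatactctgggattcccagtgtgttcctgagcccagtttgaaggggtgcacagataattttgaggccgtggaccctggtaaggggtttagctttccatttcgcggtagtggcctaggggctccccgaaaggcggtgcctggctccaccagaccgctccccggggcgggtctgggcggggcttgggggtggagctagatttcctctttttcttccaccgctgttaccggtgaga
*Stc2*, chr11:31370062-31370311, minus strand: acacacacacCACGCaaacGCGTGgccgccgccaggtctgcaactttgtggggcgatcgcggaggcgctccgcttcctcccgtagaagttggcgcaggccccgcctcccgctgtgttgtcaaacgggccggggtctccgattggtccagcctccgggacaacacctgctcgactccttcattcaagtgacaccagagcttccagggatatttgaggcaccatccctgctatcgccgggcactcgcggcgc
*Bnip3*, chr7:138909507-138909756, minus strand: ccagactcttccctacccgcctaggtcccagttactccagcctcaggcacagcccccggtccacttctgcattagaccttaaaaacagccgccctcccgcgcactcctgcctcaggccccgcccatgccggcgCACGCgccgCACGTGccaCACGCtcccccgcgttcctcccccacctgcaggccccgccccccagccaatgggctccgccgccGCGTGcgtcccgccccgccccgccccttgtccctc
*Ankrd37*, chr8:45999851-46000100, minus strand: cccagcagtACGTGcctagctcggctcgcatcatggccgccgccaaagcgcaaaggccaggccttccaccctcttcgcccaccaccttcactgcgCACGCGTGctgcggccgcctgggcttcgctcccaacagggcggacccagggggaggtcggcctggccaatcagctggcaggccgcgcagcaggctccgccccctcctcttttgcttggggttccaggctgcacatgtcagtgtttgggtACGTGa
The *Vegfa* window printed holds neither form, and the other windows printed hold between 2 and 5 matches. The window before another *Vegfa* start, not printed, holds 1 match of each form. The promoter table has 39 windows of 29 member genes and lacks the other 10 members. Of these 39 windows 76.9% hold either form, beside 38.6% of all 32851 windows of the same length. ACGTG alone is in 46.2% of the members' windows and 16.6% of all windows, and GCGTG in 59.0% and 28.2%. The members' windows are also richer in G and C, with a median of 62.0% beside 52.4%, and hold a median of 19 CG pairs beside 6, so a difference in motif share is confounded with base composition. A match describes letters and does not show that a factor binds there, and starts of one gene can share bases.

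Of the 39 members, 37 were bright enough to be tested, and 35 of those were measured on all 8 arrays. *Car12*, a carbonic anhydrase of the cell surface, and *Lox*, which cross-links collagen, were not well above background on any array. Each value is the log2 of the probe's signal minus the 75th percentile of its array, here called the normalized log2 signal, and a difference is the mean of 4 βUCP2Tg arrays minus the mean of 4 WT arrays. Differences were fitted with limma over all 35363 probes tested and adjusted by Benjamini-Hochberg over all of them. A call needed both an adjusted p under 0.05 and a change of more than 1.5-fold.

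With all 8 arrays, 31 members had a lower mean in βUCP2Tg islets and 6 a higher one. No member was called by limma in either direction, where the called share over all probes was 0.41%, with 0.206% higher and 0.204% lower. The smallest adjusted p of a member was 0.0809, for *Jmjd6*, and 12 members lay between 0.08 and 0.12. At an unadjusted p under 0.05 there were 25 members, 23 lower and 2 higher, beside 25.2% of all probes, 15.2% lower and 9.99% higher. The median difference was -0.61 over the members and -0.02 over all probes. The members more than 2-fold lower numbered 16 of 37, beside 2.24% of all probes, and 19 were more than 1.5-fold lower, beside 8.65%.

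The members differed among arrays of one genotype as well as between genotypes. βUCP2Tg replicate 4 had the highest signal of its group in 28 of 37 members, 75.7%, beside 34.1% of all probes. WT replicate 1 had the lowest signal of the WT arrays in 24 members, 64.9%, beside 28.1% of all probes. Among the 19 members more than 1.5-fold lower, βUCP2Tg replicate 4 was the highest of its group in all 19 and WT replicate 1 the lowest of its group in all 19, and βUCP2Tg replicate 4 lay above WT replicate 1 in 18 of them. Over the 37 members the median distance of βUCP2Tg replicate 4 from the mean of the other βUCP2Tg arrays was 0.80, and that of WT replicate 1 from the mean of the other WT arrays was -0.68. The median SD of a member was 0.417 in βUCP2Tg and 0.394 in WT, beside 0.167 and 0.242 over all probes.

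**Figure D1:**
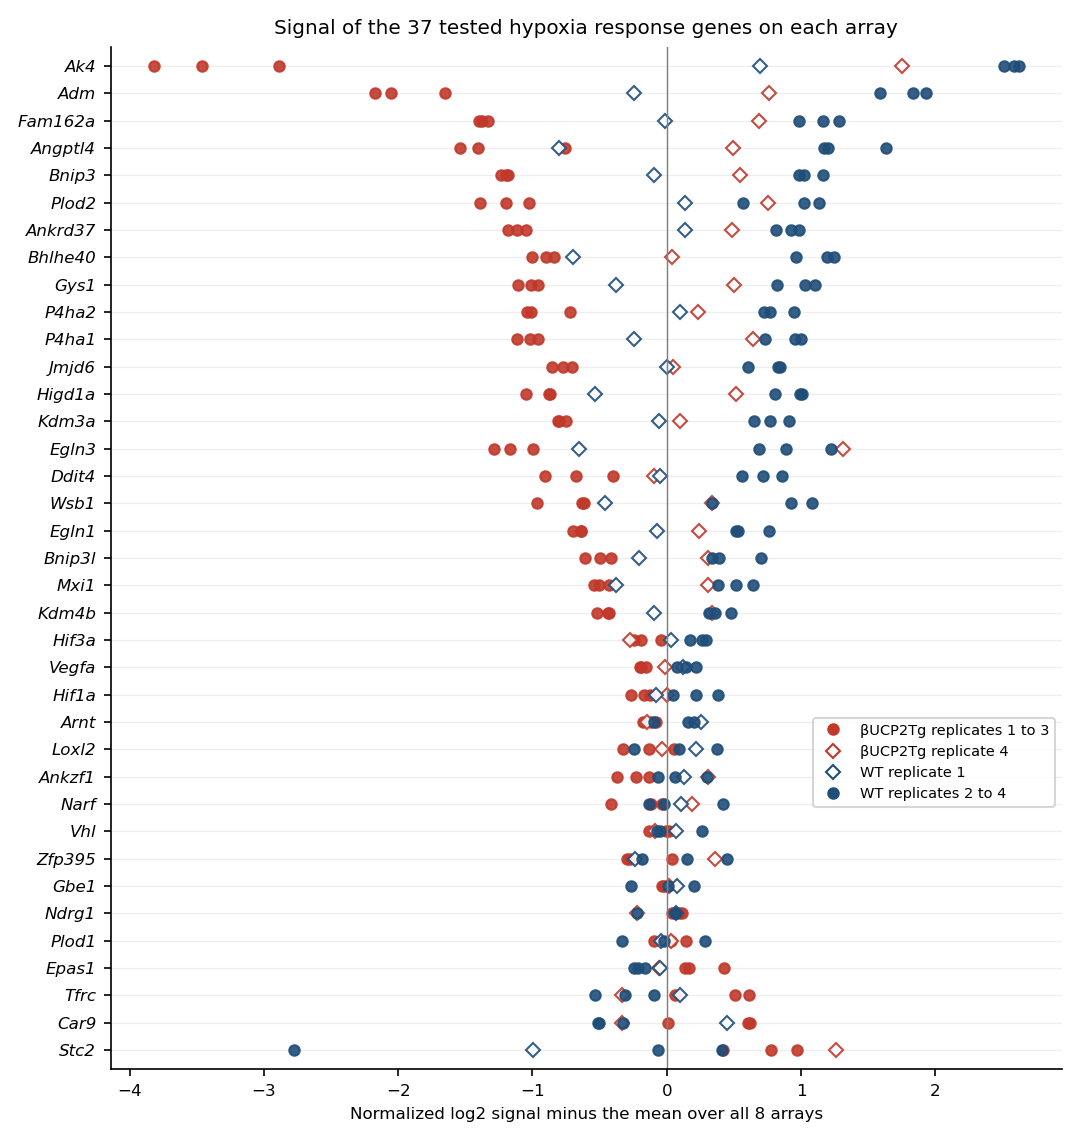
Each row is one of the 37 tested genes and each point one array, plotted as its normalized log2 signal minus the gene's mean over the 8 arrays. The rows run from the most negative to the most positive difference. In most of the upper rows βUCP2Tg replicates 1 to 3 lie to the left, WT replicates 2 to 4 to the right and the open symbols between them. Exceptions include *Egln3*, where βUCP2Tg replicate 4 is the highest array, and *Angptl4*, where WT replicate 1 lies below βUCP2Tg replicate 3. From *Loxl2* to *Plod1* the arrays of both genotypes mix, and in *Stc2*, the last row, all βUCP2Tg arrays lie to the right of all WT arrays.

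The 7 genes of oxygen sensing and the HIF subunits come first. *Hif1a*, which encodes the oxygen-labile α subunit, had 2.42, 2.56, 2.51 and 2.68 on βUCP2Tg arrays 1 to 4 and 2.60, 3.06, 2.90 and 2.73 on WT arrays 1 to 4. βUCP2Tg replicate 4 overlapped WT replicate 1, and the difference was -0.28 (SE 0.12, limma adjusted p = 0.197, n = 4 and 4).

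*Epas1* encodes another oxygen-labile α subunit, abundant in endothelium, and was one of the 6 members with a higher mean. Its βUCP2Tg arrays read 2.56, 2.30, 2.27 and 2.07 and its WT arrays 2.08, 1.91, 1.89 and 1.97. βUCP2Tg replicate 4 was just below WT replicate 1, the other βUCP2Tg arrays lay above all WT arrays, and the difference was 0.33 (SE 0.12, limma adjusted p = 0.138). The summed level of 10 endothelial markers, as linear signal relative to the 75th percentile of each array, overlapped between genotypes, at 24.2 to 29.2 in βUCP2Tg and 25.3 to 31.4 in WT. Of these 10 markers none was called and 6 had higher means, with a median difference of 0.28. At an unadjusted p under 0.05, 4 were higher and 1 was lower, and 2 were higher without overlap, *Tek* (0.65) and *Eng* (0.32). The lower one was *Flt1* (-0.75), which had the largest signal of the 10 on every array. *Flt1* is also counted below among the further hypoxia targets, so the sum leans on a hypoxia target. These genes were named after their values were seen. The part of the endothelial markers in the *Epas1* value was not tested. In whole islets fewer cells of a type and less RNA per cell cannot be told apart.

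*Hif3a* encodes an α subunit with isoforms that can oppose the others. It was dim, with -5.56, -5.40, -5.61 and -5.64 on the βUCP2Tg arrays and -5.33, -5.19, -5.10 and -5.07 on the WT arrays, and 3 of 4 βUCP2Tg arrays were well above background. All βUCP2Tg arrays lay below all WT arrays, and the difference was -0.38 (SE 0.10, limma adjusted p = 0.0917, exact permutation p = 0.0286, two-sided). That is the smallest p that 4 against 4 arrays can give, and every probe without overlap between the groups has it. Here and below it thus only restates the lack of overlap, found lower in 7.17% of all probes and higher in 5.25%.

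*Arnt*, the partner subunit, had 1.37, 1.28, 1.34 and 1.31 in βUCP2Tg and 1.71, 1.65, 1.61 and 1.36 in WT, and only WT replicate 4 fell within the βUCP2Tg range. Its difference was -0.26 (SE 0.10, limma adjusted p = 0.157). *Vhl*, the recognition subunit of the ubiquitin ligase, had 2.0, 2.14, 2.12 and 2.04 in βUCP2Tg and 2.20, 2.08, 2.06 and 2.39 in WT. The groups overlapped, with a difference of -0.10 (SE 0.10, limma adjusted p = 0.544).

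The prolyl hydroxylases *Egln1* and *Egln3* are both sensors and HIF targets. *Egln1* had 3.16, 3.16, 3.1 and 4.04 in βUCP2Tg and 3.72, 4.31, 4.33 and 4.56 in WT, a difference of -0.87 (SE 0.25, limma adjusted p = 0.107). *Egln3* had -3.68, -3.97, -3.86 and -1.37 in βUCP2Tg and -3.34, -2.0, -1.46 and -1.80 in WT, a difference of -1.07 (SE 0.64, limma adjusted p = 0.322). In both, βUCP2Tg replicates 1 to 3 lay below every WT array and βUCP2Tg replicate 4 did not. In *Egln3* βUCP2Tg replicate 4 was the highest of all 8 arrays.

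The secreted members act on vessels and metabolism. *Vegfa*, the main vessel growth factor of the islet, had 4.55, 4.51, 4.50 and 4.69 in βUCP2Tg and 4.83, 4.78, 4.92 and 4.85 in WT. The groups did not overlap, which fixes the exact permutation p at 0.0286, and the arrays of each group lay close together. The difference was small, at -0.28 (SE 0.09, limma adjusted p = 0.112). The fold was 1.22, under the limit for a call. *Vegfa* was thus 1 of the 3 members lower without overlap, with *Ddit4* and *Hif3a*, beside 7.17% of all probes, and *Stc2* was the 1 higher without overlap, beside 5.25%.

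*Adm* encodes the vasodilator peptide adrenomedullin. It had -4.22, -4.34, -3.82 and -1.41 in βUCP2Tg and -2.41, -0.58, -0.34 and -0.23 in WT. Only βUCP2Tg replicate 4 reached into the WT range, above WT replicate 1, and the difference was -2.56 (SE 0.73, 5.88-fold lower, limma adjusted p = 0.104).

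*Stc2* encodes stanniocalcin 2, a glycoprotein induced by several stresses, and was dim. It had -3.67, -3.87, -4.23 and -3.39 in βUCP2Tg and -5.64, -4.23, -4.71 and -7.42 in WT, where WT replicate 4 was not well above background. The highest WT array and the lowest βUCP2Tg array were equal to the 2 decimals given, with the βUCP2Tg array above. The difference was 1.71 (SE 0.62, limma adjusted p = 0.145, exact permutation p = 0.0286). Its size was uncertain, since it was 1.07 without WT replicate 4 and 0.20 after normexp background correction. Among probes measured on all 8 arrays, where *Stc2* is left out, no member was higher without overlap. *Angptl4*, a secreted inhibitor of lipoprotein lipase, ran from -3.63 to -1.59 in βUCP2Tg and from -2.89 to -0.45 in WT, with a difference of -1.60 (SE 0.61, limma adjusted p = 0.159).

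The 5 mitochondrial and energy genes all had lower means, from -0.61 for *Bnip3l* to -4.21 for *Ak4*. *Bnip3*, a mitochondrial receptor for mitophagy and cell death, had 4.09, 4.08, 4.05 and 5.83 in βUCP2Tg and 5.18, 6.30, 6.26 and 6.45 in WT. βUCP2Tg replicates 1 to 3 lay together, more than 1 log2 unit below WT replicate 1, and βUCP2Tg replicate 4 lay between WT replicate 1 and the other WT arrays. The difference was -1.54 (SE 0.45, 2.90-fold lower, limma adjusted p = 0.108).

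*Ak4*, an adenylate kinase of the mitochondrial matrix, had the largest SD of any member in βUCP2Tg, 2.60, and is given by array because its difference was seen to be the largest. It had -3.38, -3.02, -2.45 and 2.19 in βUCP2Tg and 1.13, 2.95, 3.06 and 3.02 in WT. βUCP2Tg replicate 4 stood 5.14 above the mean of the other βUCP2Tg arrays, and WT replicate 1 stood 1.88 log2 units under the mean of the other WT arrays. The difference of -4.21 had an SE of 1.18 and a limma adjusted p of 0.101.

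*Fam162a*, a mitochondrial protein linked to hypoxic cell death, ran from 2.30 to 4.39 in βUCP2Tg and from 3.68 to 4.98 in WT (difference -1.71, SE 0.51). *Higd1a*, which assists the respiratory chain, ran from 2.32 to 3.88 and from 2.84 to 4.38 (difference -1.14, SE 0.45). *Bnip3l*, the relative of *Bnip3*, ran from 2.32 to 3.24 and from 2.72 to 3.63 (difference -0.61, SE 0.25). In these genes too, the highest βUCP2Tg array was replicate 4 and the lowest WT array replicate 1.

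**Figure D2:**
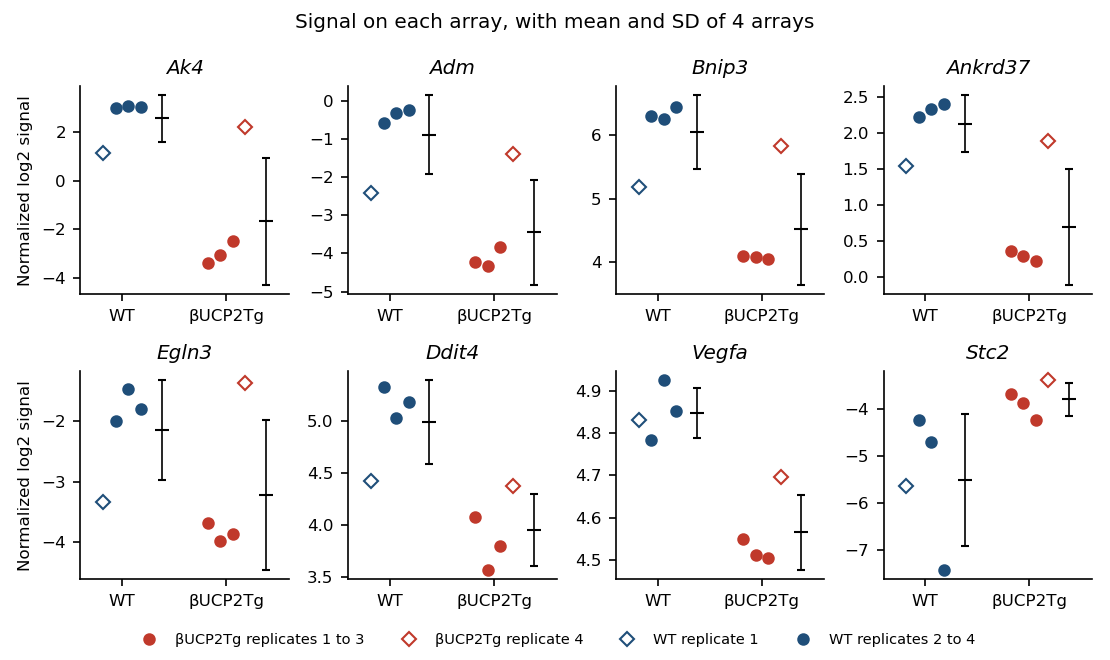
The normalized log2 signal of 8 genes is shown on each array, with the mean and SD of the 4 arrays of each genotype to the right of its points. In *Ak4*, *Adm*, *Bnip3*, *Ankrd37* and *Egln3* the open symbols of βUCP2Tg replicate 4 and WT replicate 1 lie apart from the other arrays of their genotype, whereas in *Vegfa* all βUCP2Tg arrays lie below all WT arrays. Each panel has its own vertical axis, which does not start at 0.

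Of the genes for growth restraint, signalling and transcription, 8 of 9 had lower means. *Ddit4* encodes REDD1, which restrains the growth kinase mTORC1 under hypoxia and other stress. It had 4.07, 3.57, 3.80 and 4.37 in βUCP2Tg and 4.42, 5.33, 5.03 and 5.19 in WT, so that the groups did not overlap, and βUCP2Tg replicate 4 and WT replicate 1 were neighbours across the gap. The difference was -1.04 (SE 0.24, 2.05-fold lower, limma adjusted p = 0.0823, exact permutation p = 0.0286).

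*Ankrd37*, an ankyrin repeat gene known as a direct HIF target, had 0.36, 0.29, 0.22 and 1.89 in βUCP2Tg and 1.54, 2.22, 2.33 and 2.40 in WT. βUCP2Tg replicates 1 to 3 were the lowest of all arrays, WT replicates 2 to 4 the highest, and βUCP2Tg replicate 4 and WT replicate 1 lay between. The difference was -1.43 (SE 0.39, 2.70-fold lower, limma adjusted p = 0.0969).

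*Bhlhe40*, a repressor that also acts in the circadian clock, had a difference of -1.35 (SE 0.45) and *Wsb1*, a substrate adaptor of a ubiquitin ligase, one of -0.94 (SE 0.39). *Mxi1*, an antagonist of MYC, had -0.58 (SE 0.27). In all 3 of these genes βUCP2Tg replicates 1 to 3 lay below every WT array. The others were small. *Ankzf1*, which acts in ribosome quality control, had -0.21, *Narf*, a nuclear protein that binds prelamin A, -0.19, and the zinc finger gene *Zfp395* -0.09, while *Ndrg1*, a growth-restraining gene widely used as a hypoxia marker, had 0.01 (SE 0.12, limma adjusted p = 0.964).

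Collagen hydroxylases need oxygen and are known HIF targets. *P4ha1*, a catalytic subunit of collagen prolyl 4-hydroxylase, had normalized log2 signals of -0.60, -0.51, -0.45 and 1.16 in βUCP2Tg and 0.27, 1.25, 1.47 and 1.51 in WT. βUCP2Tg replicates 1 to 3 were below all WT arrays, and βUCP2Tg replicate 4 lay just under WT replicate 2. The difference was -1.22 (SE 0.44, limma adjusted p = 0.143). *P4ha2*, its relative, had -1.27 (SE 0.31, limma adjusted p = 0.0862) and the lysyl hydroxylase *Plod2* -1.43 (SE 0.47). By contrast the lysyl hydroxylase *Plod1* had 0.05 and the lysyl oxidase relative *Loxl2* -0.22, with overlapping groups. A list of 9 tested stellate and fibroblast markers, cells that make collagen, had summed levels of 8.40 to 10.2 in βUCP2Tg and 7.04 to 12.9 in WT. None of the 9 was called and 6 had higher means, with a median of 0.33. At an unadjusted p under 0.05, 2 were higher and none lower, and *Pdgfrb* (0.40), named after its value was seen, was higher without overlap. Their part in the members' values was not tested.

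The oxygen-dependent demethylases *Kdm3a* and *Kdm4b* and their relative *Jmjd6* had differences of -1.13 (SE 0.27), -0.53 (SE 0.21) and -1.14 (SE 0.25). *Jmjd6* ran from 2.91 to 3.81 in βUCP2Tg and from 3.76 to 4.61 in WT, so that only βUCP2Tg replicate 4 and WT replicate 1 crossed. *Gys1*, glycogen synthase, had -1.29 (SE 0.44), whereas *Gbe1*, the glycogen branching enzyme, had -0.01 (SE 0.11). The transferrin receptor *Tfrc*, which brings in iron, had 0.42 (SE 0.23), and the carbonic anhydrase *Car9*, a surface enzyme of pH control, 0.45 (SE 0.29). *Tfrc* and *Car9* were among the 6 members with higher means, and in both βUCP2Tg replicate 4 was the lowest of its group and WT replicate 1 the highest of its group.

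βUCP2Tg replicate 4 and WT replicate 1 were then left out together. They were chosen because of their values in such genes, so the counts that follow describe the remaining 3 against 3 arrays and are no independent evidence. Without them 21 members were called lower, beside 9.25% of all probes, and 2 were called higher, *Car9* and *Tfrc*, beside 6.73%. The arrays of 25 members lay lower without overlap, beside 23.6% of all probes, and 4 lay higher without overlap, beside 21.5%. The median difference of the members was then -1.01. *Ak4* went to -5.96, *Adm* to -3.74, *Fam162a* to -2.51, *Bnip3* to -2.26, *Egln3* to -2.08 and *Ankrd37* to -2.03. By their brightest probes the subunit genes stayed small, with *Hif1a* at -0.40, *Arnt* at -0.21, *Vhl* at -0.09 and *Epas1* at 0.45, and *Vegfa* was at -0.33, under the fold limit.

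Dim members also depended on the background correction. After normexp the difference was -1.70 for *Adm*, -0.59 for *Egln3*, -0.60 for *Plod2*, -0.60 for *Wsb1*, -0.25 for *Hif3a* and 0.06 for *Car9*, each smaller in size than above by more than 1.5-fold. The same correction called 9 members lower, beside 1.65% of all probes, namely *Egln1*, *Adm*, *Ak4*, *Ddit4*, *Ankrd37*, *P4ha2*, *Plod2*, *Kdm3a* and *Jmjd6*, with adjusted p from 0.0343 to 0.0488 by limma.

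With 1 array left out at a time, 14 members were called lower without βUCP2Tg replicate 4, beside 3.19% of all probes, and 17 without WT replicate 1, beside 5.67%. None was called without any other single array, where at most 6 probes in all were called lower.

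**Figure D3:**
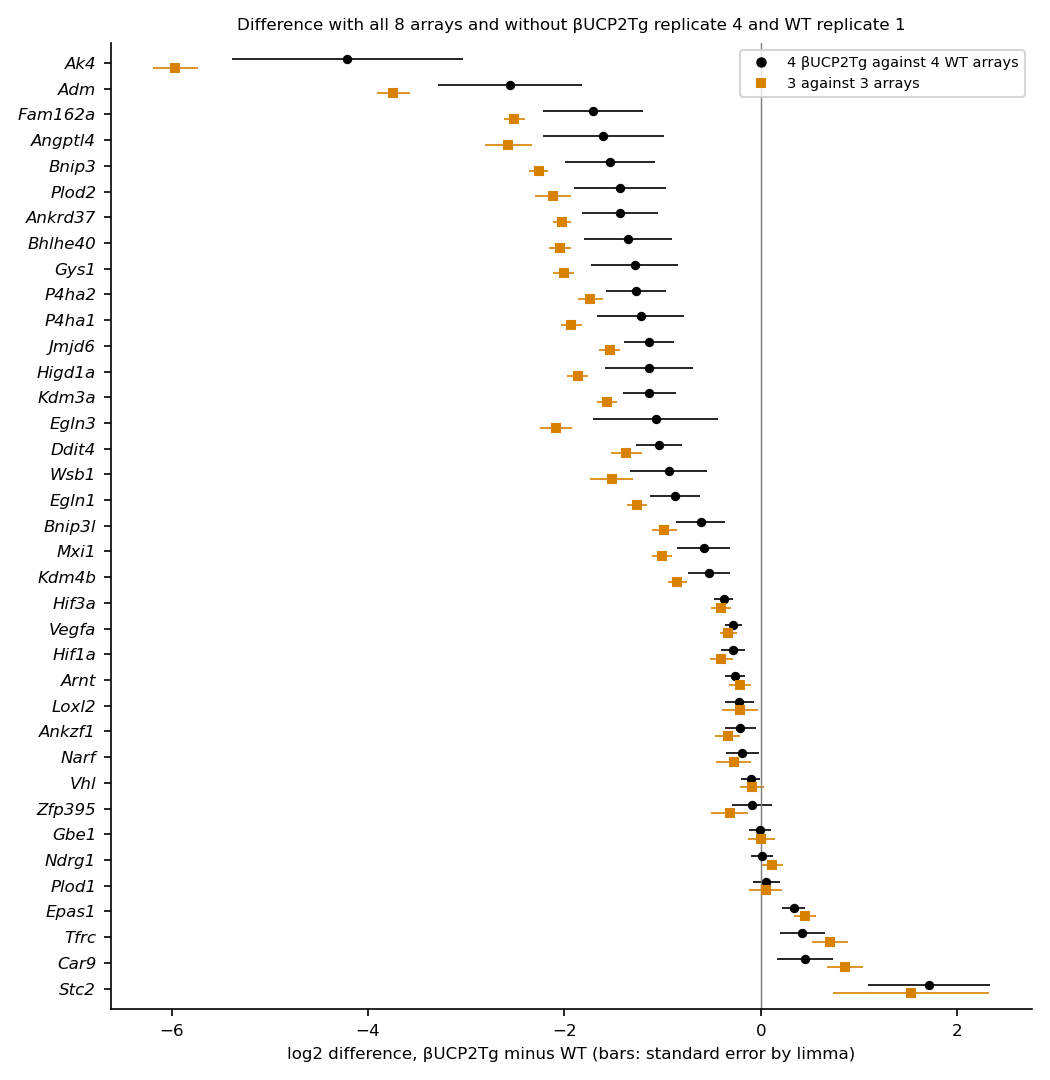
For each of the 37 tested genes the log2 difference between βUCP2Tg and WT is drawn with its limma standard error, for all 8 arrays (black) and without βUCP2Tg replicate 4 and WT replicate 1 (orange). In the upper rows the orange points lie farther from 0 with shorter bars, while genes from *Hif3a* down to *Plod1* stay near 0 in both.

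Other genes of the pathway were taken from lists of textbook members. None of the 15 tested genes of the HIF machinery outside the members was called, at an unadjusted p under 0.05 there were 4, and the median difference was -0.01. The 3 of these without overlap were *Cited2*, a HIF-induced competitor for its coactivator (-0.47), *Eloc*, an elongin of the von Hippel-Lindau ligase (-0.27), and *Os9*, a lectin of ER quality control (0.18). Of 45 tested further targets, 30 had lower means with a median of -0.39, none was called, and 21 were lower at an unadjusted p under 0.05. The metallothioneins *Mt2* (-0.76) and *Mt1* (-0.52), which bind zinc, and the mitochondrial protease *Lonp1* (-0.52) had the largest differences among those without overlap. The 21 glycolytic targets had 19 lower means, none called and 18 lower at an unadjusted p under 0.05, with a median of -1.22 and no member of the list free of overlap.

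The arrays fell into a like pattern over the members and the glycolytic targets. The median deviation of a list on an array is the median, over its genes, of the normalized log2 signal minus the gene's mean over 8 arrays. For the members it was -0.43, -0.50, -0.61 and 0.24 on βUCP2Tg arrays 1 to 4 and -0.05, 0.52, 0.52 and 0.48 on WT arrays 1 to 4. For the glycolytic targets it was -0.97, -0.90, -0.97 and 0.37 and then -0.14, 0.81, 0.75 and 0.86. In both lists βUCP2Tg replicate 4 lay above WT replicate 1 and below the other WT arrays. The median of the machinery lay between -0.05 and 0.14 on all arrays, over genes that differed in both directions. Chosen after their values were seen, *Siah2*, a ubiquitin ligase that acts on prolyl hydroxylases, had -0.88 (SE 0.23, limma adjusted p = 0.0907) and *Arnt2*, a relative of *Arnt*, had 0.48 (SE 0.16, limma adjusted p = 0.127). On the *Siah2* probe too, βUCP2Tg replicate 4 lay above WT replicate 1 and below the other WT arrays.

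**Figure D4:**
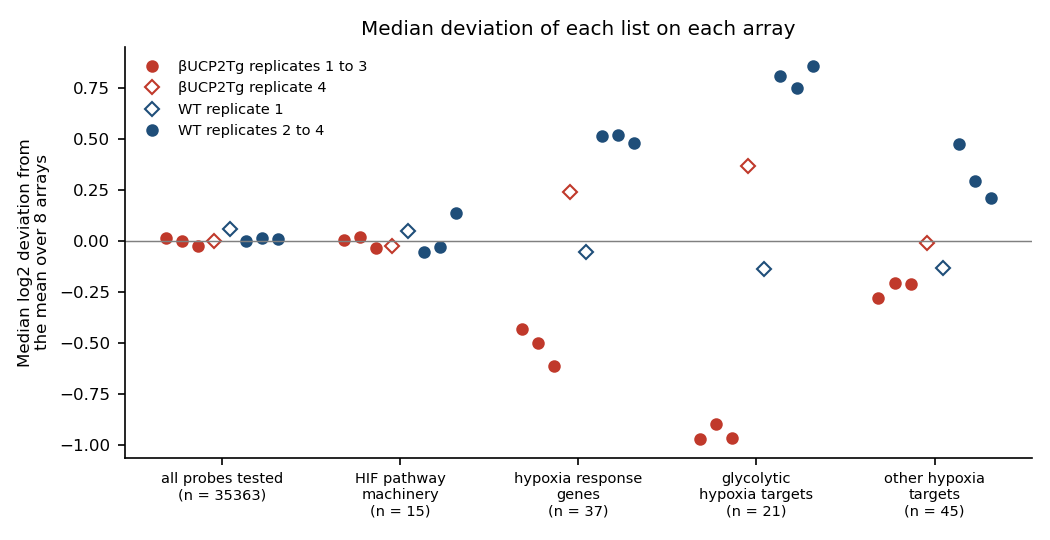
Each point is the median, over the genes of a list, of the normalized log2 signal minus the gene's mean over the 8 arrays, one point per array. Over the hypoxia response genes and the glycolytic targets the arrays spread in a like way, with βUCP2Tg replicate 4 and WT replicate 1 between the other arrays, while the medians of all probes and of the HIF machinery stay close to 0.

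Other measures moved with these arrays, and their part in the members' values was not tested. The 10 genes of an RNA stress and dissociation list had a median deviation of -1.06, -0.92, -0.84 and 0.01 on the βUCP2Tg arrays and -0.69, 1.41, 1.06 and 0.53 on the WT arrays, and all 10 had lower means in βUCP2Tg. The 20 tested acinar markers, genes of the enzyme-secreting cells around islets, all had lower means, with *Ptf1a* not measured on any array, and 1 was lower at an unadjusted p under 0.05. Their summed level was 20.2, 55.9, 27.2 and 337 in βUCP2Tg and 212, 412, 539 and 33.3 in WT. The acinar sum was low on βUCP2Tg replicates 1 to 3, where the members were low too, and higher on βUCP2Tg replicate 4 and WT replicates 1 to 3. WT replicate 4 had a low acinar sum and a member deviation of 0.48. The part of acinar content in the members' values was not tested. The 8 β-cell markers, among them the insulin genes, summed to 1174 to 1564 in βUCP2Tg and 1500 to 1551 in WT, with none of the 8 missing. The 9 tested macrophage markers summed to 17.7 to 21.7 and 20.9 to 28.4.

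All arrays shared a slide on which each row held a single genotype, so slide position and genotype cannot be told apart. Between 33191 and 36320 probes were well above background on an array, and no spot was saturated. The targeted gene went with the labels in every sample, since the brightest *Ucp2* probe had 7.71, 7.50, 7.33 and 6.99 in βUCP2Tg and 1.18, 0.92, 1.03 and 1.46 in WT, a difference of 6.24 (SE 0.18, limma adjusted p = 9.32e-06). βUCP2Tg replicate 4 was the lowest of the βUCP2Tg arrays for *Ucp2*, and remained far above all WT arrays. It was also the lowest of its group for the summed β-cell markers (1174). A link of either level to the members' values was not tested.

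The rule used one probe per gene, and 18 members had 26 further tested probes. Of these 22 had a lower mean in βUCP2Tg, 4 differed in sign from the brightest probe of the gene, none was called, and 19 lay farther from 0 than the brightest probe. *Plod1*, at 0.05 by its brightest probe, had -0.84 by a further one (limma adjusted p = 0.116), and the further *Arnt* probes had -0.83 and -0.81 beside -0.26. A further *Gbe1* probe had -1.25 beside -0.01 (limma adjusted p = 0.125), with 2 of 4 βUCP2Tg arrays well above background. Another *Gbe1* probe, measured on all 8 arrays, had 0.05. Further probes of *Kdm4b* and *Ankzf1* also went the other way, at 0.13 beside -0.53 and 0.01 beside -0.21. These genes were picked after the values were seen.

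The widest gap between probes was in *Hif1a*, also picked after its values were seen. The probe A_66_P107191, named *Hif1a* in the deposited table, is shown because it behaved unlike the brightest *Hif1a* probe.
A_66_P107191: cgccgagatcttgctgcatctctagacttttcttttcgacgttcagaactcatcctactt
It had -5.03, -5.15, -4.21 and 0.09 in βUCP2Tg and -0.72, 1.17, 1.24 and 1.24 in WT. βUCP2Tg replicate 4 lay above WT replicate 1, in the order that *Ak4* and *Adm* show. The difference was -4.31 (SE 1.13, limma adjusted p = 0.0933), beside -0.28 for the brightest probe. Another *Hif1a* probe had -2.96, but it was well above background on only 1 of 4 βUCP2Tg arrays and on all 4 WT arrays, so the size of its difference is uncertain. Which transcript or strand these probes read was not settled here, so their values are given by probe and not as the level of *Hif1a* mRNA.

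Without βUCP2Tg replicate 4 and WT replicate 1, 14 of the 23 further probes tested were called lower, beside the 9.25% of all probes given above. A_66_P107191 was at -6.01 and the further *Arnt* probes at -1.19 and -1.20, all called lower, unlike the brightest probes of both genes. As above, these 3 against 3 values are a description.

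**Figure D5:**
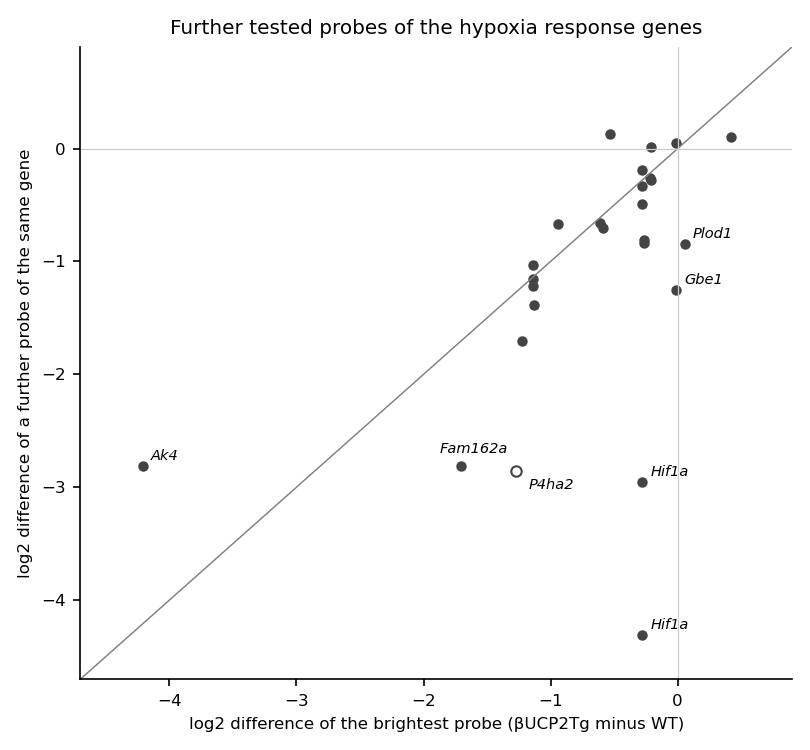
Each point is a further tested probe of a member gene, with the log2 difference of the gene's brightest probe on the horizontal axis and its own on the vertical axis, and the diagonal marks equal differences. A pair of *Hif1a* probes lies far below the diagonal at -2.96 and -4.31, and the open symbol marks a *P4ha2* probe that was not well above background on any βUCP2Tg array, so that its size is a bound.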

How the data were processed

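Islet RNA of 4 βUCP2Tg and 4 WT samples was labelled with Cy3 and hybridised to Agilent mouse arrays, 1 per sample. The authors deposited, for each spot, the intensity after background subtraction and detrending by Agilent Feature Extraction, on a linear scale with no scaling between arrays. The submitters' processing notes give version 9.1 and the file headers 10.7.3.1. The authors also deposited a table of log2 normalized values, which equal the log2 scanner intensities apart from a constant on each array. It also holds their fold change and p-values of the comparison, which were not used.

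From these files, control and outlier spots were dropped, the log2 intensity was centred on the array's 75th percentile, and repeated spots were averaged. A probe with 50% or more of its spots well above background counted as measured on that array. The 35363 of 56605 probes measured on 4 or more arrays were tested. The genotypes were contrasted by limma 3.58.1 in R 4.3.3 (lmFit, eBayes) with Benjamini-Hochberg adjustment, a call needing an adjusted p under 0.05 and a fold over 1.5, and single genes also with two-sided exact permutation tests. Precision is limited by having 4 arrays in each group.

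The members, lists, named genes and tests were chosen with earlier results of these data known. Values on every array are given for the members without overlap, the members called (none), the 7 oxygen sensing and HIF genes, and *Vegfa*, *Adm*, *Bnip3*, *Ankrd37*, *Ddit4* and *P4ha1*. Outside the members, up to 3 genes of each hypoxia list are named with their differences, those with the largest among genes without overlap. *Ak4*, *Siah2*, *Arnt2*, the single cell type markers given with a difference and the further probes were added after their values were seen. The lists cover HIF machinery, glycolytic and other hypoxia targets, RNA stress, and markers of β, other endocrine, acinar, ductal, endothelial, macrophage and stellate cells. The 6 tested ductal markers summed to 34.6 to 41.4 in βUCP2Tg and 25.1 to 59.8 in WT, and the 6 other endocrine markers to 608 to 787 and 583 to 702. Alternatives were the filter on dim probes, quantile or median scaling, normexp (offset 50), the deposited values, the fold limit, the mean of a gene's probes, the replicate number as a block, and arrays left out. Promoters came from RefSeq (GRCm38.p6), which was not used for coordinates of probes.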

Additional observations from a re-analysis of the deposited data

Results flagged for a closer look

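Within each genotype, the gap between the extreme array and its nearest neighbour was divided by the range of the 4 arrays, and a ratio above Dixon's critical value marked an array as standing apart. In 20 of the 76 groups examined an array stood apart by this measure. Its nominal rate of 1 in 20, or 3.8 groups, is no yardstick here. The genes were listed after βUCP2Tg replicate 4 and WT replicate 1 were seen to stand apart in such genes, so the count is a description. Among the βUCP2Tg arrays it was replicate 4 in all 14 cases, always as the highest. The ratio was 0.93 for *Egln1*, 0.886 for *Egln3*, 0.973 for *Bnip3*, 0.887 for *Higd1a*, 0.967 for *Fam162a*, 0.833 for *Ak4* and 0.869 for *Mxi1*. It was 0.846 for *Bhlhe40*, 0.919 for *Ankrd37*, 0.914 for *P4ha1*, 0.932 for *Kdm3a*, 0.895 for *Kdm4b*, 0.84 for *Jmjd6* and 0.908 for *Gys1*.

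Among the WT arrays replicate 1 stood apart as the lowest in 5 genes, with a ratio of 0.842 for *Adm*, 0.856 for *Bnip3*, 0.87 for *Higd1a*, 0.945 for *Ak4* and 0.853 for *Bhlhe40*. WT replicate 3 stood apart as the lowest for *Ndrg1*, with 0.964. The genes share arrays, so these ratios are not independent of one another.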

How the results depend on the processing

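No member was called higher under any alternative other than the one without both βUCP2Tg replicate 4 and WT replicate 1, which gave 2, with 21 members called lower, 25 lower and 4 higher without overlap, and 2310 probes called higher and 3176 lower. With 1 array left out, the members called lower ranged from 0 to 17, those lower without overlap from 3 to 24 (beside 7.88% to 16.6% of all probes) and higher from 1 to 2 (5.68% to 14.7%), the median of the members from -0.81 to -0.51, and all probes called from 8 to 1787 higher and 0 to 1972 lower. The probes called numbered 1787 higher and 1972 lower without WT replicate 1, 349 and 1118 without βUCP2Tg replicate 4, and at most 23 and 6 without any other array. With normexp 9 members were called lower, 0 were higher without overlap, and 231 probes were called higher and 585 lower. Quantile scaling left 1 member lower and 2 higher without overlap. With probes measured on all 8 arrays, 0 members were higher without overlap and 138 probes were called lower. The overlap counts with normexp, quantile scaling and all 8 arrays have no share of all probes beside them here. They are a description and no result about the members. Without the filter 18 probes were called higher and 3 lower, with a 2-fold limit 37 lower, and with the mean of a gene's probes 48 higher and 35 lower. The cause was not tested. Of the single members, 623 values kept direction and side of the threshold, 63 passed it in addition and 15 turned sign, all in 4 genes close to 0. *Gbe1* was at 0.00325 with quantile scaling, 0.0502 with median scaling, 0.0504 with normexp and 0.00646 in the deposited values, and ran from -0.101 to 0.0559 with arrays left out. *Plod1* was at -0.0253 with normexp and -0.395 as the mean of its probes, and ran from -0.0488 to 0.158. *Ndrg1* ran from -0.0607 to 0.112 and *Zfp395* from -0.316 to 0.0460.

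The deviations of same-numbered arrays from their group means had correlations of 0.44, -0.05, -0.01 and -0.24. Over all pairs of a βUCP2Tg and a WT array they ran from -0.47 to 0.46. These values do not settle whether same-numbered samples were paired, and the labels do not say. With the replicate number as a block, 13 probes were called higher and 1 lower, and no member was called.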
